A study of Homo sapiens with 18 samples.

Results

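The regions described here were open, as called from ATAC-seq, in cells that express wtBASP1 and in neither of the other lines. They were selected on the peak calls themselves. Overlapping intervals of the 9 ATAC-seq libraries were joined into 85549 regions, and the 632 regions with a peak in all 3 B-K562 libraries and in no V-K562 or G-K562 library are called members. K562 is an established human cell line from a chronic myeloid leukemia. All 3 lines carry a stably transfected plasmid and were kept under G-418. V-K562 cells hold the vector alone, B-K562 cells express wtBASP1, and G-K562 cells express BASP1-G2A, in which the glycine that carries the myristoyl group is replaced by alanine. Both assays, RNA-seq and ATAC-seq, were run on 3 cultures per line. Each construct is represented by 1 line, so an effect of BASP1 and a difference between lines cannot be told apart. The ATAC-seq libraries held 47111 to 55570 peaks, and the lowest summit pileup of any peak was 10 tags. A library without a called peak may still have had some tags there.

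ATAC-seq maps chromatin that a transposase can enter, which includes active promoters and enhancers. BASP1 is a corepressor of the transcription factor WT1, and its N-terminal myristoylation lets it interact with nuclear lipids. K562 cells have erythroid features, and in erythroid cells the zinc finger factors GATA1 and GATA2 bind the letters AGATAA at many enhancers, often in a complex with TAL1 and LMO2. The globin genes, which code for the protein chains of hemoglobin, are controlled by such distant enhancers.

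Sequences around the summits of 5 members are shown, since they carry the letters counted below or lie at the genes whose RNA is described. Capitals mark AGATAA on either strand, read on the forward strand as TTATCT. All are read from the forward strand of GRCh38. The GATA1 member (chrX:48785884-48786084) and the C1orf109 member (chr1:37689887-37690001) hold the motif. The HBE1 member (chr11:5284636-5284836), the KLHL35 member (chr11:75428284-75428484) and the RYR2 member in intron 97 (chr1:237799905-237800105) do not. Another RYR2 member, in intron 16, holds the motif and is not shown. The C1orf109 window was shortened to 115 bases to leave out untranslated exon bases.
GATA1 member: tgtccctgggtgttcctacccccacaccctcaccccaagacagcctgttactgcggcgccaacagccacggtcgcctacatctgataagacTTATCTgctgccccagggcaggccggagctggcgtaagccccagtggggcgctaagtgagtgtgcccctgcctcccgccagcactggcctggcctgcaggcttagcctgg
C1orf109 member: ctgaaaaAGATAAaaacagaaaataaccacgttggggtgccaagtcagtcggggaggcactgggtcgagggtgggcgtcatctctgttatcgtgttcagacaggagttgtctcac
HBE1 member: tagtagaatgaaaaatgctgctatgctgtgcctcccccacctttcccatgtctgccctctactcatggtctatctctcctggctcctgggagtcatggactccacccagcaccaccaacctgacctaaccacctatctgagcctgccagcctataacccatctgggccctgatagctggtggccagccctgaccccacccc
KLHL35 member: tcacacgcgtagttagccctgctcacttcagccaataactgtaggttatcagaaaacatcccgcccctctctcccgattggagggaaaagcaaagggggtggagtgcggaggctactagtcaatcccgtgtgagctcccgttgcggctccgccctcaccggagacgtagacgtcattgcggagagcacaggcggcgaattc
RYR2 member: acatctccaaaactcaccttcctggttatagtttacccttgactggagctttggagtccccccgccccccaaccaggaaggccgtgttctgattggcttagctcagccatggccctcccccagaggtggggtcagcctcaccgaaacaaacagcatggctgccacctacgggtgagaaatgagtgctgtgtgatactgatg

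The members were low to moderate peaks. The summit pileup, the number of tags at the highest point of a peak, had a median over members of 30, 30 and 29 in the 3 B-K562 libraries, and ranged from 12 to 163. The median of all peaks in each of these libraries was 46, and between 27.3% and 29.1% of a library's peaks lay below the median of the members. In all 3 libraries 323 members reached 25 tags, 128 reached 40 and 20 reached 80. The libraries gave like heights for the same member. The median fold between a pair of libraries was 1.18 to 1.19, and 5 to 10 members differed by more than 2-fold in a pair.

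**Figure D1:**
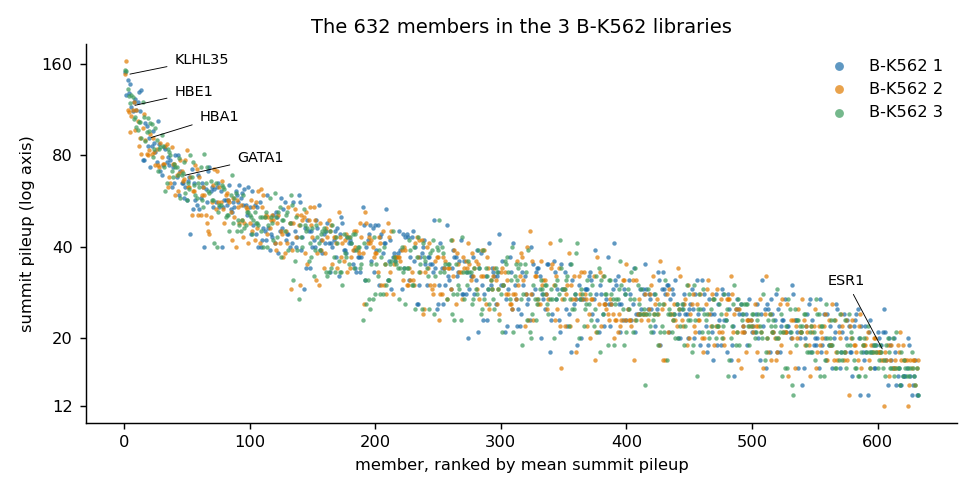
Summit pileup of each of the 632 members (y axis, tags, log axis) against its rank by the mean of the 3 B-K562 libraries (x axis), with 1 point per library. Points run from 12 to 163 tags, the 3 libraries overlap along the whole range, and the ESR1 member lies near the low end while the HBE1 and KLHL35 members lie near the top.

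The rule drew its line through a continuum. Among regions just outside it, 1011 had a peak in 2 of the 3 B-K562 libraries and in no other, with a median B-K562 summit pileup of 22. Another 506 had a peak in all 3 B-K562 libraries and in 1 V-K562 library, with medians of 30 in B-K562 and 24 in that V-K562 library. A further 129 had a peak in all B-K562 libraries and 1 G-K562 library, with medians of 28 and 23. The 3 lowest members lie near EVL, in a TRIM64F pseudogene and at the start of MGMT, with 13 to 17 tags in every library.

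Most members lay away from transcription starts. Of the 632, 76 (12%) had their summit within 1 kb of the start of a protein-coding transcript, against 19.1% of all regions and 40.1% of the 26984 regions with a peak in all 9 libraries. Introns held 256 members (40.5%, against 35.5% of all regions), exons 19 (3.01%), flanks within 5 kb of a gene 44 (6.96%), and 237 (37.5%) were intergenic. The median distance to a start was 20.3 kb for members and 16.6 kb for all regions. The 128 members with at least 40 tags in each library were closer, with a median of 4.53 kb and 20.3% at a start. The median GC content was 50.5% in members, 52.7% in all regions and 59.2% in regions open in all libraries.

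Members were scattered over the genome. Another member lay within 10 kb of 14 of them and within 100 kb of 114 (18%). The X chromosome had the most members per 1000 regions, 11.4, and chromosome 15 the fewest of the chromosomes with 10 or more members, 5.16. The nearest region with a V-K562 or G-K562 peak was at a median distance of 6.31 kb, and for 105 members it was within 1 kb. For such members the separation from a neighbouring peak depends on where the peak calls end. The ELOVL1 and ATM members lie 153 and 108 bp from regions open in all 9 libraries.

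The letters AGATAA were the most common of the 23 motifs searched in members. They stood on either strand within 100 bp of the summit in 290 members (45.9%, 95% Wilson interval 42.0% to 49.8%), against 18.7% of all 85549 regions, 12.8% of regions open in all 9 libraries and 8.90% of the 1495 regions with peaks in the 3 G-K562 libraries only. Members and all regions were also compared within the middle range of member GC content, 45.8% to 56.2%, where the shares were 50.7% and 21.9%. Among members at starts 27.6% held the motif, against 5.33% of all regions at starts. In introns these shares were 52.0% and 23.7%. In 4 groups of 158 members by height the share was 39.9%, 44.9%, 51.9% and 46.8% from the lowest to the highest.

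**Figure D2:**
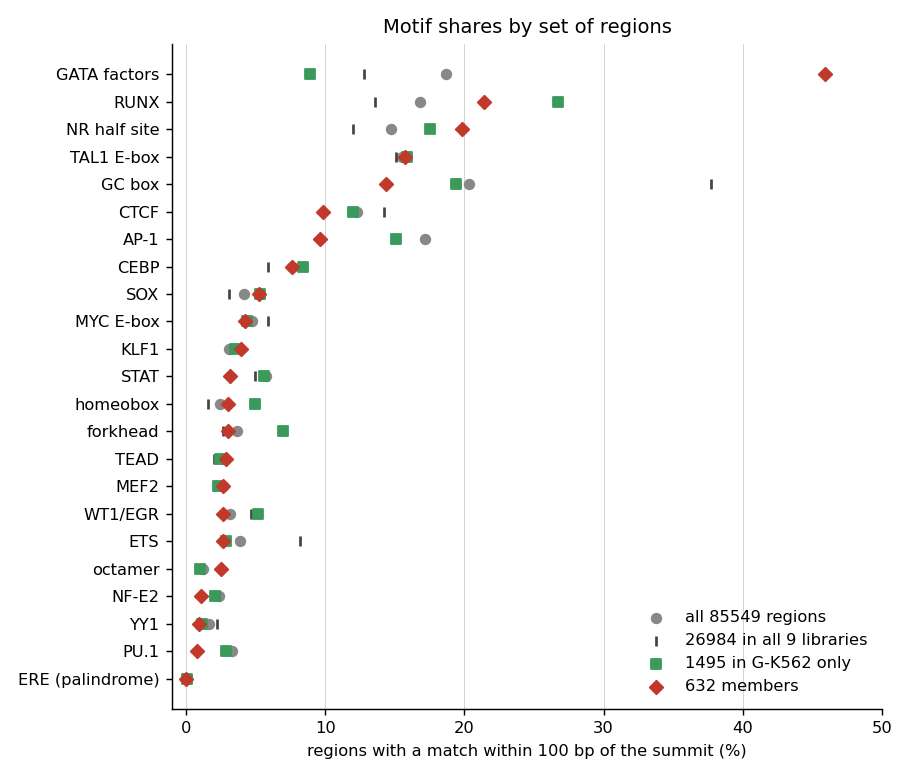
Share of regions (x axis, percent) with at least 1 match to each of 23 motifs (y axis) within 100 bp of the summit, for members, all regions, regions in all 9 libraries and regions in G-K562 only. The GATA motif stands apart in members at 45.9%, and for most other motifs the members lie close to all regions.

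This share was not particular to the members. Of the 2659 regions with peaks in all V-K562 and all B-K562 libraries and in no G-K562 library, 55.5% held AGATAA. Of the 1525 regions open in the 3 V-K562 libraries only, 33.4% did. The share was 11.9% in the 1066 regions shared by V-K562 and G-K562 alone and 6.91% in the 217 shared by B-K562 and G-K562 alone. Among regions seen in B-K562 libraries only, it was 23.0% for those in 1 library, 33.6% for those in 2 and 45.9% for the members. Matches in members were densest just before the summit, with 8.86 per 100 members in the nearest 20 bp and 2.22 in the outermost 20 bp on that side. On the other side they ran from 5.85 in the nearest 20 bp and 6.80 in the next to 4.27 in the outermost, with no peak at the summit. Of the 359 matches, 51.8% lay within 40 bp of the summit, against 48.5% in all regions. At least 2 matches were present in 56 members (8.86%, against 2.68% of all regions). CTG followed by GATA after 7 or 8 bases, the spacing of the composite GATA and TAL1 element, occurred in 14.7% of members and 6.04% of all regions. These last counts were chosen after the data were seen.

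**Figure D3:**
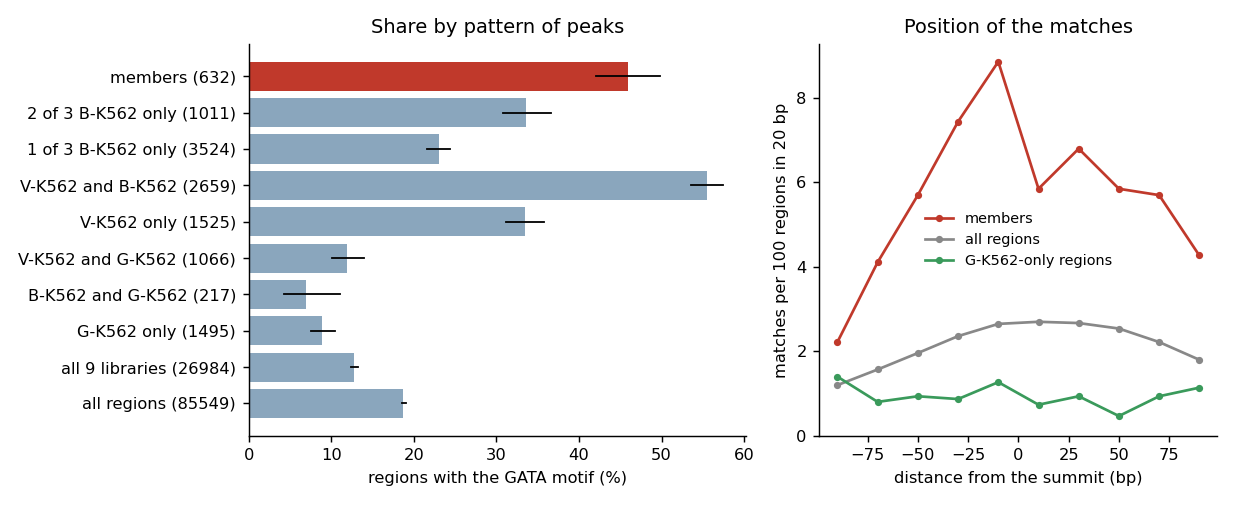
Left, share of regions with the GATA motif (x axis, percent, with 95% Wilson intervals as lines) for members and other patterns of peaks, with the number of regions in brackets. Right, matches per 100 regions in steps of 20 bp (y axis) by distance from the summit (x axis). Patterns without G-K562 peaks have the largest shares, up to 55.5%, and member matches run from 2.22 to 8.86 per 100 before the summit and from 4.27 to 6.80 after it.

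Few other motifs differed as much. The RUNX letters TGTGGT stood in 21.4% of members and 16.8% of all regions, but also in 26.7% of regions found in G-K562 only. The nuclear receptor hexamer AGGTCA was in 19.8% and 14.7%, and the octamer ATGCAAAT, read by POU factors, in 2.53% and 1.22%. Some motifs were rarer in members. The AP-1 site TGANTCA was in 9.65% against 17.2% of all regions, the PU.1 site GAGGAAGT in 0.791% against 3.34%, and the GC box GGGCGG in 14.4% against 20.3%. The WT1 and EGR1 letters GCGTGGG were in 2.69% of members and 3.16% of all regions. The estrogen response element was searched as GGTCA and its reverse complement TGACC, 3 bases apart. It was within 100 bp of the summit in 0 of 632 members, which allows a share of up to 0.475%, and in 0.0409% of all regions. In the whole merged region it was in 0.158% of members and 0.0771% of all regions.

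The highest members lay in several kinds of place. The top one, chr21:6377054-6377328, had 150, 148 and 152 tags (150 ± 2, SD, n = 3) and no gene within 5 kb, and a region 4656 bp away had 1478 to 2315 tags in all 9 libraries. The next, in intron 3 of KLHL35 (chr11:75428167-75428681), had 126, 163 and 151 tags. The third, in intron 2 of DIABLO (chr12:122223598-122223948), which codes for a mitochondrial activator of apoptosis, had 141, 113 and 132. The others of the top 10 lay 1615 bp from the start of SLCO2B1, beside TMEM141, upstream of HBE1, beside DGCR8, at the start of C1orf109, in exon 9 of TRNAU1AP and beside ZNF83. Each of them had 95 to 137 tags in every B-K562 library. The 10 highest members at a start lay at C1orf109, CDC37 (beside PDE4A), HBA1, ELOVL1, ATM, KMT2A, CANX, VEGFA, CHID1 and GATA1, and all had at least 61 tags in each library.

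Members lay in both globin clusters. The member at chr11:5284556-5285050, upstream of HBE1, the embryonic beta-like globin gene, had 115, 108 and 126 tags (116 ± 9.07, SD, n = 3). The closest regions on its sides were open in all 9 libraries. The one at chr11:5280530-5281040 had 180 to 224 tags in the control, 185 to 223 with wtBASP1 and 295 to 340 with BASP1-G2A, and the one at chr11:5288103-5288529 had 95 to 113, 128 to 139 and 67 to 106. On the alpha-globin side, the member over the start of HBA1 (chr16:176508-176820), which codes for adult alpha-globin, had 86, 80 and 106 tags. A member near HBM (chr16:164999-165247) had 34, 34 and 33. In the same cluster a region at chr16:143009-143439 had at least 100 tags in every B-K562 library, 36 to 58 in V-K562 libraries and no peak in G-K562 libraries. The GATA1 member (chrX:48785822-48786184), 556 bp upstream of a start of that gene, had 65, 71 and 69 tags.

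The RNA of the same lines was measured apart from the peak calls. The deposited RNA values are read counts divided by a size factor and rounded, written here as normalised read counts, and their totals ran from 32074895 to 33229588 per library. BASP1 itself had 7, 5 and 7 in V-K562, 6849, 6618 and 6189 in B-K562, and 9323, 12538 and 8124 in G-K562 libraries. WT1 had 1130 to 1267 in the control, 1348 to 1383 with wtBASP1 and 2906 to 3297 with BASP1-G2A. All 10 genes of a list of erythroid and K562 markers were expressed, while the lymphoid marker MS4A1 was at 0 in all libraries. The limma-trend test on log2(value + 1) took genes that reached 10 in 3 or more libraries. Genes are called higher or lower where the adjusted p was 0.05 or less and the change was 2-fold or more.

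A larger share of the genes near members than of all genes tested was called higher in B-K562 cells. A gene lay within 5 kb of 417 members, which gave 396 closest genes, and 215 members had none. Of the 396 genes, 305 passed the filter on low values, 14 of them with fewer than 3 V-K562 libraries at 10, so that their B-K562 values carried them past it. Of the 305, 45 (14.8%) were called higher in B-K562 than in V-K562 cells, against 6.46% of the 14958 genes tested, and 25 (8.20%) were called lower, against 14.1%. The median log2 fold change was 0.21 near members and 0.01 over all genes. With only genes at 10 or more in every V-K562 library, an alternative chosen after seeing the data, 35 of 291 were higher and 25 lower. The shares over all genes given above are for the main filter and not for this one. Genes near the 290 members with AGATAA were called higher in 17 of 156 cases (10.9%), and the others in 28 of 149 (18.8%). A difference between these shares was not tested.

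The largest rise belonged to ESR1, the estrogen receptor alpha gene. Its normalised read counts were 12, 11 and 22 in V-K562, 459, 444 and 502 in B-K562 and 21, 11 and 12 in G-K562 libraries. All B-K562 libraries lay above all others, and the V-K562 and G-K562 libraries overlapped. The log2 fold change in B-K562 was 4.94 (SE 0.21, adjusted p = 1.8e-10, limma-trend). Its member, chr6:151791136-151791546 in an intron, was among the lowest, with 25, 12 and 17 tags. Within the gene and 5 kb around it lay 5 regions, of which 3 had a V-K562 peak and 2 a G-K562 peak.

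RYR2, a calcium release channel of the endoplasmic reticulum, followed. It had 31, 23 and 16 in V-K562, 552, 580 and 541 in B-K562 and 4, 6 and 5 in G-K562 libraries, so the 3 lines did not overlap. The log2 fold change was 4.57 (SE 0.18) in B-K562 and -2.0 (SE 0.34) in G-K562 against V-K562. The gene body held 3 members. The highest, chr1:237470818-237471288 in intron 17, had 129, 86 and 103 tags and is closest to the microRNA gene MIR4428, which lies inside RYR2. The others, in introns 97 and 16, had 48, 43 and 32 tags and 27, 19 and 15 tags. Of the 5 regions in the gene, 4 had a B-K562 peak, 1 a V-K562 peak and 0 a G-K562 peak.

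PCSK1 and PCSK2, which code for proprotein convertases that cut hormone precursors, were both among the 10 largest rises. PCSK1 had 6, 9 and 10 in V-K562, 80, 69 and 69 in B-K562 and 10, 6 and 7 in G-K562 libraries, with a log2 fold change of 3.0 (SE 0.24). Its 2 members lay in intron 9 and exon 9, with 46, 40 and 27 tags in the first. PCSK2 stayed at 22 or less in every library, with a log2 fold change of 2.62 (SE 0.59) and a member in exon 9. AKAP2, an anchor protein for protein kinase A, was the closest gene of 3 members, the most by that count. Its RNA had 1, 0 and 0 in V-K562, 17, 13 and 13 in B-K562 and 0, 1 and 0 in G-K562 libraries. AKAP2 overlaps PALM2AKAP2 in the annotation, and reads of the pair may have been split in counting.

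The other named rises were KIF25-AS1 at 4.02, the beta-galactosidase relative GLB1L3 at 3.78, the pseudogene DPY19L2P1 at 3.14, RNF17, which codes for a germ cell protein with tudor domains, at 2.91, and TRIM61 at 2.63 on the log2 scale. In each of these 5 genes every B-K562 library lay above every V-K562 library. KIF25-AS1 is antisense to KIF25. DPY19L2P1 had 27, 27 and 21 in V-K562 and 206, 217 and 263 in B-K562 libraries, and 1, 0 and 0 in G-K562 libraries. Of the 10 named rises, 5 had fewer than 3 V-K562 libraries at 10. These are PCSK1, PCSK2, AKAP2, KIF25-AS1 and TRIM61, which passed the filter through their B-K562 values, so their rise is a description and not a test.

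Some members lay at genes whose RNA fell. NDRG1, a gene known to respond to low oxygen and to differentiation, had 3325, 3580 and 3568 in V-K562, 193, 178 and 183 in B-K562 and 342, 387 and 378 in G-K562 libraries, a log2 fold change of -4.23 (SE 0.06) in B-K562, and a member in intron 3. VEGFA, the vascular growth factor, had 16137, 16215 and 17513 in V-K562, 3373, 3431 and 3492 in B-K562 and 11435, 11885 and 11977 in G-K562 libraries. Its log2 fold change was -2.27 (SE 0.05) in B-K562, while a member 305 bp from a start of the gene (chr6:43771389-43771749) had 63, 85 and 71 tags. The other 8 of the 10 largest falls were CYP2S1, WIPI1, ZBTB20, DFNA5, AIG1, GNAZ, NEK5 and ADAM19, with log2 fold changes from -2.75 (CYP2S1) to -1.59 (ADAM19).

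At gene starts the counts depended on which start was taken. By the outermost start of the closest gene in the RNA table, 47 genes had a member summit within 1 kb, of which 29 passed the filter, 5 of them through their B-K562 values. In B-K562 against V-K562, 15 of the 29 (51.7%, against 6.46% of all genes) were called higher. These include all 5 that passed through their B-K562 values, which are AKAP2, KIF25-AS1, MUC8, RLN3 and TRIM61. The rise of these 5 is a description and not a test. Called lower was 1, ADAM19 (3.45%, against 14.1%), and the median change was 1.0 on the log2 scale. In G-K562 against V-K562, 0 of 28 were called higher and 16 (57.1%) lower, where 8.81% and 10.3% of all genes were. Among the 16, CYB5A, DPY19L2P1, GADD45G, MGMT, RASGRP1, SH2D1A, ZNF730 and ZNF836 had a G-K562 library under 10. They passed the filter through their V-K562 values, so their fall is a description and not a test. At an unadjusted p under 0.05 in limma-trend, 2 of the 28 were higher and 18 lower, against 35.1% and 34.7% of all genes. In G-K562 against B-K562, 0 of 29 were called higher and 19 (65.5%) lower, with a median of -2.77, where 17.4% and 12.5% of 15521 genes were. The genes just listed, without MGMT but with AKAP2 and MUC8, are among the 19 and had a G-K562 library under 10. Their difference is likewise a description and not a test. At an unadjusted p under 0.05 in limma-trend, 1 of the 29 was higher and 28 lower, against 38.6% and 41.1% of all genes. The remaining 276 genes within 5 kb of a member had 30 (10.9%) called higher and 24 (8.70%) lower in B-K562.

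This definition leaves out genes with a member at another of their starts, such as VEGFA, ATM, CANX, CHID1, C1orf109 and RNF17. A second definition, chosen after seeing the data, took every gene with a protein-coding transcript start within 1 kb of a member summit. It gave 77 genes in the RNA table, of which 35 were also in the first set, and 60 were tested. Among the tested genes, RLN3 and TRIM61, both called higher in B-K562, passed the filter through their B-K562 values. In B-K562 against V-K562, 14 of the 60 (23.3%, against 6.46% of all genes) were called higher. Called lower were 4 (6.67%, against 14.1%), which are ADAM19, HNF4A, MAJIN and VEGFA. In G-K562 against V-K562, 2 (3.33%, against 8.81%), ATM and TNRC18, were called higher and 16 (26.7%, against 10.3%) lower. Of the 16, CYB5A, GADD45G, MGMT, RASGRP1, SH2D1A, ZNF730 and ZNF836 had a G-K562 library under 10 and passed the filter through their V-K562 values. Their fall is a description and not a test, also against B-K562. So is that of ZFHX2, called lower against B-K562. In G-K562 against B-K562, 5 (8.33%, against 17.4%) were called higher and 22 (36.7%, against 12.5%) lower. The 5 are HNF4A, TMCO3, TNRC18, VEGFA and VIPAS39. The median log2 fold changes were 0.31, -0.22 and -0.59, smaller in size than with the first definition.

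HBA1 is in both sets. It had 232, 184 and 154 in V-K562, 482, 346 and 411 in B-K562 and 52, 80 and 42 in G-K562 libraries, without overlap between the lines. Its log2 fold change was 1.12 (SE 0.14, adjusted p = 8.3e-06, limma-trend) in B-K562 and -1.75 (SE 0.22, adjusted p = 3.2e-05) in G-K562. HBA1 and HBA2 are nearly identical, and only reads that map once were kept, so the split between them is uncertain. HBA2 had 830 to 1091 in the control, 4163 to 4486 with wtBASP1 and 412 to 469 with BASP1-G2A. The next genes, also in both sets, were picked after their values were seen. CYB5A, which codes for cytochrome b5, had 114, 97 and 75 in V-K562, 318, 310 and 303 in B-K562 and 0 in each G-K562 library. Against V-K562, the level with BASP1-G2A is at least 32.3-fold lower, with 3 taken as the floor per library. SLC38A5, an amino acid transporter, had 1743 to 2145 in the control, 6091 to 6431 with wtBASP1 and 846 to 954 with BASP1-G2A. RASGRP1, an activator of RAS, had at most 134, at least 228 and at most 12.

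**Figure D4:**
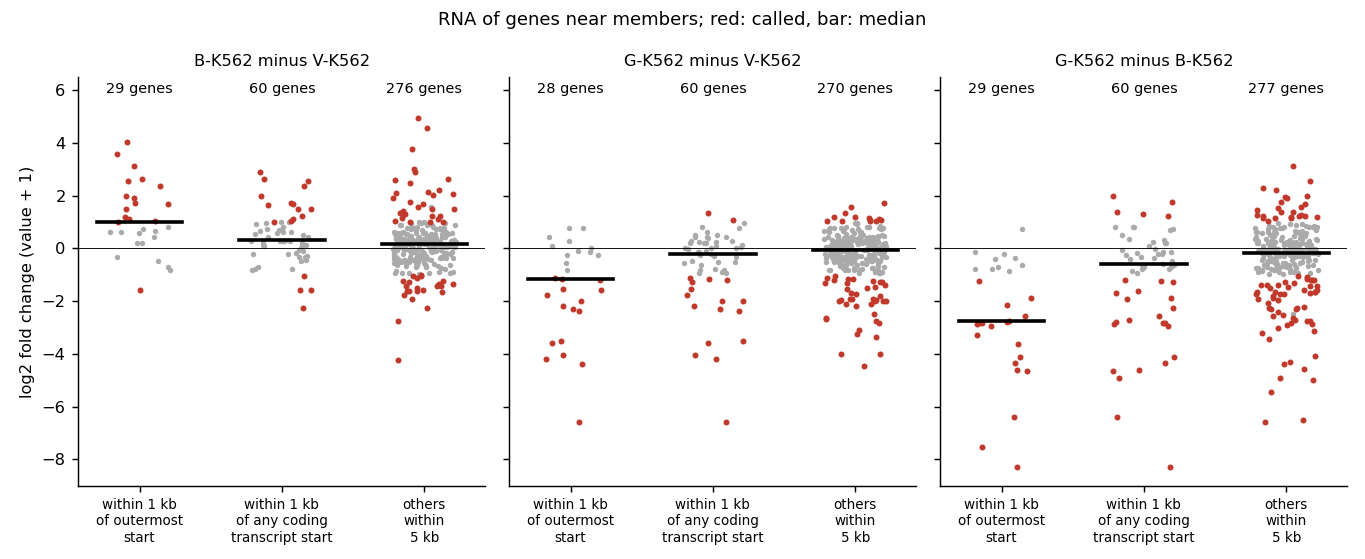
Log2 fold change (y axis, on log2 of value + 1) in 3 comparisons for genes with a member within 1 kb of their outermost start, genes with a member within 1 kb of any protein-coding transcript start (a set that overlaps both others), and genes within 5 kb of a member that are not in the first set. Each point is a gene, red points are called, and bars are medians. The medians are 1.0, -1.17 and -2.77 in the first set, 0.31, -0.22 and -0.59 in the second and 0.16, -0.04 and -0.17 in the last.

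In G-K562 cells a larger share of the genes near members than of all genes tested was called lower. Against V-K562, 13 of 298 (4.36%) were called higher and 56 (18.8%) lower, where 8.81% and 10.3% of 15271 genes tested were. With only genes at 10 or more in every library, 12 of 271 (4.43%) were higher and 38 (14%) lower. The shares over all genes are for the main filter. Against B-K562, 25 of 306 (8.17%) were higher and 77 (25.2%) lower, where 17.4% and 12.5% of 15521 genes tested were. The median log2 fold changes were -0.09 and -0.24. These comparisons share libraries with that of B-K562 and V-K562 and are not independent of it. The direct one joins the 2 RNA tables, which the authors normalised separately, through their common V-K562 libraries. The ratio of these libraries between the tables ran from 1.015 to 1.016 in replicates 1 and 2 and from 1.02 to 1.021 in replicate 3 over 6018 genes with at least 1000, leaving out the outermost 1% on each side. Genes near the 1495 regions found in G-K562 only were also compared in G-K562 against V-K562. Of 675 tested, 145 (21.5%, against 8.81% of all genes) were called higher and 61 (9.04%, against 10.3%) lower.

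**Figure D5:**
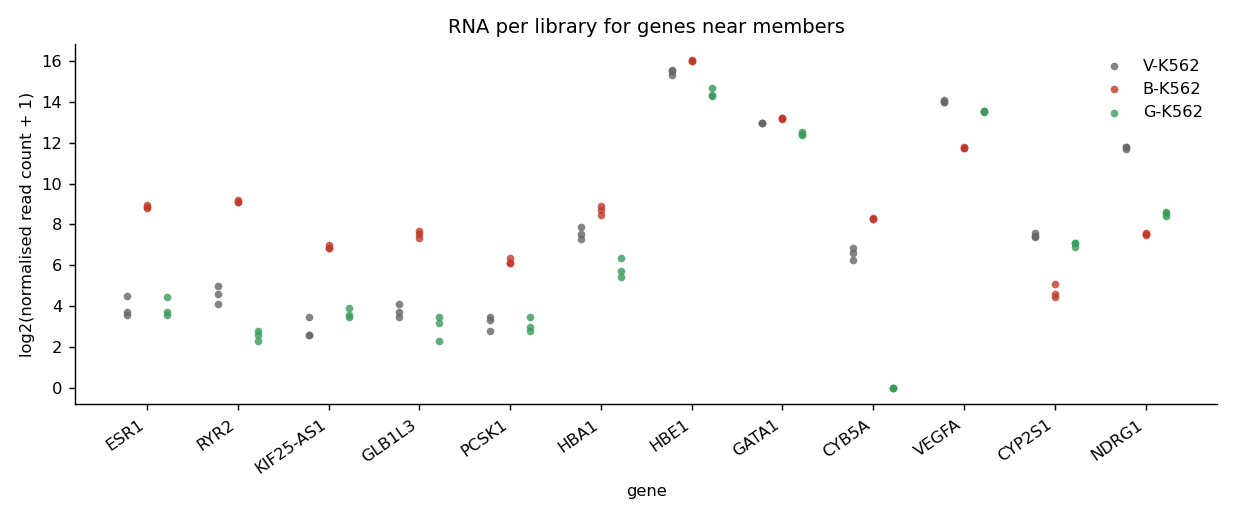
Normalised read counts on a log2(value + 1) axis for 12 genes near members, with 1 point for each of the 3 libraries per line. The 6 genes on the left, HBE1, GATA1 and CYB5A have B-K562 points above V-K562 and G-K562 points, and VEGFA, CYP2S1 and NDRG1 have them lowest.

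Of the genes named for the highest members, VEGFA and HBA1, given above, were called in B-K562 against V-K562, and ATM, a kinase of the DNA damage response, was called higher in G-K562 with a log2 fold change of 1.08 (SE 0.08, adjusted p = 4.8e-07, limma-trend) and 0.29 (SE 0.05) in B-K562. HBE1 had 40294 to 48550 in the control, 64551 to 66612 with wtBASP1 and 20187 to 26464 with BASP1-G2A, a log2 fold change of 0.55 (SE 0.07) in B-K562 and -1.03 (SE 0.10) in G-K562. GATA1 had 8033 to 8083, 9173 to 9548 and 5347 to 5819, with 0.22 (SE 0.04) and -0.56 (SE 0.05). C1orf109 had 1134 to 1379, 2408 to 2495 and 642 to 686, with 0.99 (SE 0.07) and -0.92 (SE 0.08). DIABLO, TMEM141, DGCR8, ELOVL1, PDE4A, CHID1 and KMT2A had log2 fold changes of 0.22 to 0.75 in B-K562, and TRNAU1AP, ZNF83 and CANX had -0.51, -0.19 and -0.21. KLHL35 stayed at 2 or less in every library.

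The erythroid markers had higher values in B-K562 cells, and most had lower values in G-K562 cells. In B-K562 cells 1 of the 10, HBZ, was called higher and 0 lower, all 10 were higher and 0 lower at an unadjusted p under 0.05 (limma-trend), where 39.4% and 37.9% of all genes were, and the median log2 fold change was 0.69. HBZ, the embryonic alpha-like globin gene, had 2179 to 3283 in the control, 12751 to 13104 with wtBASP1 and 385 to 622 with BASP1-G2A. In G-K562 cells 6 of the 10 were called lower, against 10.3% of all genes. A list of 63 genes held factors that read the motifs searched, and RELA and TFCP2, which the study discusses. Of the 63, 60 were tested, with 3 called higher in B-K562 (ESR1, POU3F2 and SOX4) and 9 lower (RUNX3, LHX3, ETS1, SOX6, RUNX2, ATF3, CEBPA, CEBPB and CEBPD). These are 5% and 15% of the 60, near the 6.46% and 14.1% of all genes. GATA2 had a log2 fold change of 0.40 (SE 0.05), TAL1 0.25 (SE 0.06) and LMO2 0.40 (SE 0.05) in B-K562. In G-K562 LMO2 was at -1.26 (SE 0.08) and TAL1 at -0.79 (SE 0.07), while GATA2 was at 0.04 (SE 0.06).

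Open regions around the members were compared in the same libraries. Within 10 kb of a member lay 299 regions with a peak in all 9 libraries. In 128 of them (42.8%) every B-K562 library was above every V-K562 library, against 34.5% of the 26984 constant regions, and in 25 (8.36%) every B-K562 library was below, against 12.2%. In 64 (21.4%) every B-K562 library was above every G-K562 library, against 12.8%. The median log2 difference between B-K562 and V-K562 was 0.245 near members and 0.197 over all constant regions. With libraries scaled by a trimmed mean these medians were 0.072 and 0.025, and 24.7% near members and 19.9% of all constant regions had every B-K562 library above every V-K562 library.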

How the data were processed

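RNA-seq and ATAC-seq were done on 3 cultures of each line. The authors mapped RNA reads with STAR and ATAC reads with BWA-MEM to GRCh38, removed duplicates and kept unique reads. They counted RNA reads on RefSeq genes with Subread, without a strand setting given in the sources used here. The RNA-seq signal values the authors deposited are those counts, divided by their DESeq2 size factors and rounded, in 1 table per BASP1 line. Deposited fold change and p-value columns hold the authors' own comparisons and were not used. The deposited ATAC-seq signal values are tags piled up at MACS2 peak summits in libraries the authors sampled to equal tag numbers, with peaks called per library. Totals of scaled values do not show depth.

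Intervals were merged, starts read as BED, and each region was placed by GENCODE v44 and by the closest RNA-table gene within 5 kb. Motifs were searched within 100 bp of the mean summit. The 3 RNA comparisons used limma 3.58.1 in R 4.3.3 over all tested genes with Benjamini-Hochberg adjustment, without a block. For G-K562 against B-K562, B-K562 values were multiplied by 1.017. On simulated data for B-K562 against V-K562 (14883 genes), 23 of 50 genes changed 2-fold and 48 of 50 changed 3-fold were called. p-values measure the spread between cultures. Wilson intervals cover counting error only. A marker gene and some sequences are not reported here. Same-numbered libraries did not deviate together (correlations from -0.10 to 0.15), so numbers pair nothing. Named members were the 10 highest, 3 lowest and 10 highest at starts, and named genes the 10 largest rises and falls within 5 kb, genes with 3 or more members, BASP1, WT1 and changed motif factors. The members, lists and tests were chosen with earlier results of these data known. Alternatives covered the merging, pileup and gene windows, filters, pseudocounts, scaling and left-out libraries. Other steps ran in Python 3.11.15 (pandas 2.3.3, numpy 2.4.6, scipy 1.17.1).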

Additional observations from a re-analysis of the deposited data

Results flagged for a closer look

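The wtBASP1 and BASP1-G2A lines differed from each other in 15 of the 20 named genes near members, by the direct test of G-K562 against B-K562 over all 9 libraries (limma-trend, adjusted p of at most 0.05 and at least 2-fold). For the 10 largest rises the log2 difference, G-K562 minus B-K562, was -4.98 for ESR1, -6.58 for RYR2, -3.27 for KIF25-AS1, -4.56 for GLB1L3, -3.62 for AKAP2, -7.53 for DPY19L2P1, -3.13 for PCSK1, -4.91 for RNF17, -1.87 for TRIM61 and -1.71 for PCSK2. Among the falls it was 2.30 for CYP2S1, 1.75 for VEGFA, 1.47 for WIPI1, 1.97 for ZBTB20 and 1.24 for AIG1. Over all 15521 genes tested, 17.4% were called higher and 12.5% lower in this comparison. The 20 genes were ranked by their B-K562 values, which also enter this difference, so a larger share was to be expected. AKAP2, PCSK1 and PCSK2, counted in the 15, passed the filter on low values only through their B-K562 libraries. GLB1L3, RYR2 and DPY19L2P1 also had G-K562 libraries under 10 and passed through the other lines. The difference of all these genes is therefore a description and not a test. With 3 libraries per group, single libraries were not tested as outliers.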

How the results depend on the processing

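The medians for genes within 5 kb kept their sign under every alternative run. Counts have no direction, and some of them changed, as given below. With a replicate block the counts of higher and lower genes were 46 and 25 for B-K562 against V-K562, 13 and 56 for G-K562 against V-K562, and 25 and 77 for G-K562 against B-K562. The number of members was 323 at a summit pileup of at least 25 and 128 at 40, and 670 to 993 with 1 library left out, where the loss of B-K562 replicate 2 or 3 gave 993 or 986. Counts below are in the order B-K562 against V-K562, G-K562 against V-K562 and G-K562 against B-K562. The adjusted p alone gave 154, 89 and 92 of 305, 298 and 306 genes higher and 90, 130 and 162 lower. Many of all genes pass such a cut. At an unadjusted p under 0.05 (limma-trend), 39.4%, 35.1% and 38.6% of all genes were higher and 37.9%, 34.7% and 41.1% lower. Near members these shares were 52.5%, 30.5% and 30.1% higher and 30.2%, 44.6% and 53.9% lower. Genes with a member at their outermost start gave 15, 0 and 0 higher, 1, 16 and 19 lower and medians of 1.0, -1.17 and -2.77. Genes with a member at a protein-coding transcript start gave 14, 2 and 5 higher, 4, 16 and 22 lower and medians of 0.31, -0.22 and -0.59. Members of at least 40 tags gave 10, 7 and 8 of 89, 89 and 90 genes higher and 4, 15 and 22 lower. The shares higher were 11.2%, 7.87% and 8.89%, against 6.46%, 8.81% and 17.4% of all genes. The shares lower were 4.49%, 16.9% and 24.4%, against 14.1%, 10.3% and 12.5%. Medians for this set were 0.27 and -0.29 in the first and last comparison. These sets are smaller by construction. Leaving out 1 library gave 41 to 45, 11 to 15 and 24 to 26 higher, 23 to 26, 42 to 56 and 73 to 80 lower, and medians of 0.20 to 0.24, -0.12 to -0.05 and -0.27 to -0.22. Rescaling by the median ratio gave medians of 0.16 and -0.18 in the first and last. A value of at least 10 in every library gave -0.04 and -0.17 in the second and last, no filter -0.27 in the last, 50 kb -0.28, and at least 10 in all V-K562 libraries -0.22. Members of at least 40 tags lay at starts in 20.3%, in introns in 33.6% and between genes in 26.6% of cases. AGATAA anywhere in the merged region was in 52.2% of members and 26.6% of all regions. Scaled by a trimmed mean, constant regions near members had a median of 0.072. Causes were not tested.

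Of 2105 refits for 58 named genes, 2055 kept the direction and side of the threshold. Those that changed sign were all in G-K562 against V-K562 with 1 library left out, at small differences. Their ranges were -0.31 to 0.27 for ESR1, -0.04 to 0.04 for DIABLO, -0.11 to 0.01 for DGCR8, -0.07 to 0.14 for KMT2A, -0.09 to 0.64 for RLN3 and -0.37 to 0.01 for CA3. Low RNA values and pileups near the calling limit bound the precision, and a region without a call is not shown to be closed.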
